A study of Mus musculus with 6 samples.

Results

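The 10 genes described here encode the matrix built on hyaluronan in the dental pulp. They are the 4 lecticans (*Vcan*, *Acan*, *Ncan* and *Bcan*), 2 link proteins (*Hapln1* and *Hapln3*), the 3 hyaluronan synthases (*Has1*, *Has2* and *Has3*) and the hyaluronan receptor *Cd44*. They were chosen by name from the 27506 genes in the count table. RNA was taken from the pulp of mandibular first molars of C57BL/6 mice on postnatal day 3.5 (P3.5). The 3 control libraries are *Ror2fl/fl* and the 3 mutant libraries *Osr2-Cre;Ror2fl/fl*. By these genotype labels, both groups carry the floxed *Ror2* alleles and only the mutants carry the Cre driver. The driver deletes *Ror2* in dental mesenchyme and alveolar bone but not in the dental epithelium. *Ror2* encodes a receptor tyrosine kinase for Wnt ligands. Neither the labels nor the methods say whether each library came from 1 animal or from pooled animals, so the p-values measure the spread between these libraries, which may be partly technical.

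Hyaluronan is a long unsulfated sugar chain that the synthases extrude from the plasma membrane. Lecticans are large proteoglycans that bind it with one end and carry chondroitin sulfate chains along the core protein, and link proteins lock that bond. Versican is the widespread lectican of embryonic and loose connective tissue, including the mesenchyme of developing teeth, whereas aggrecan is best known from cartilage, and neurocan and brevican from brain. CD44 is the main cell surface receptor that ties cells to the chain.

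The libraries held 56134800 to 62628900 estimated counts each. Levels are in CPM, counts scaled to a common library size by the TMM method, with mean ± SD over the 3 libraries of a group (n = 3). A gene was called when its Benjamini-Hochberg adjusted p-value was under 0.05 in the quasi-likelihood test of edgeR. The targeted gene measured 36.2 to 38.2 CPM in control and 26.3 to 28.1 CPM in mutant libraries, a log2 fold change of -0.43 (SE 0.08, adjusted p = 0.013 in edgeR), and the counts sum floxed and other exons. That call was lost without control library 2 or control library 3 (adjusted p = 0.066 and 0.075). The enamel protein gene *Amelx*, a product of the dental epithelium, took the most counts in every library, 9.15% to 9.97% in control and 12.6% to 15.1% in mutant libraries. The libraries therefore held RNA of a layer that the Cre driver does not target. In bulk RNA, fewer cells of a type and less RNA per cell cannot be told apart.

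Lectican and link protein genes lie side by side in the mouse genome (GENCODE M21, mm10). *Vcan* (ENSMUSG00000021614.16, chr13:89655312-89742509, minus strand) and *Hapln1* (ENSMUSG00000021613.9, chr13:89539796-89611652, plus strand) face each other with their 3′ ends 43.7 kb apart. *Acan* (ENSMUSG00000030607.7, chr7:79053483-79115099, plus strand) and *Hapln3* (ENSMUSG00000030606.8, chr7:79115102-79131018, minus strand) also face each other, with 2 bases between their annotated 3′ ends. *Bcan* lies 21.5 kb from *Hapln2* and *Ncan* 2.22 kb from *Hapln4*, and no annotated gene lies within any of the 4 gaps. Whether the counting used strand is not stated in the sources used here.

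The 250 bases upstream of the start of the called lecticans are shown because both genes were lower in mutant libraries and differ in base composition. RefSeq (GRCm38.p6) gave a start for 8 of the 10 genes, all but *Has2* and *Has3*. The window of *Hapln1*, the other called gene, lies inside an annotated exon and is not shown. Capitals mark the GC box (GGGCGG, either strand), the letters bound by Sp1 family factors. The *Vcan* window is chr13:89742513-89742762 on the minus strand and the *Acan* window is chr7:79052976-79053225 on the plus strand, both written 5′ to 3′.
*Vcan*: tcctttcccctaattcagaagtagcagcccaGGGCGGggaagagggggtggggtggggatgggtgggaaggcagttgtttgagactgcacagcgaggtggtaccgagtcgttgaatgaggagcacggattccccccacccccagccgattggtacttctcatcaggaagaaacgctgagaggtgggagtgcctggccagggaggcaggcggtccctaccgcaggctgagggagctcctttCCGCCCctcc
*Acan*: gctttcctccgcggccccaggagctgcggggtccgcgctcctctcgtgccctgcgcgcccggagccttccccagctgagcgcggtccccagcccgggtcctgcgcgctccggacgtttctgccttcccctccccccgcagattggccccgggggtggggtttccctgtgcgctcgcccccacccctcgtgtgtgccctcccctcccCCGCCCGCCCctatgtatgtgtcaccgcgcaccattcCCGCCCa

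The *Vcan* window is 62.4% G and C with 10 CpG dinucleotides, and the *Acan* window is 74.4% with 26, against a median of 52.4% over all promoters. *Vcan* holds GC boxes at 219 to 214 and at 10 to 5 bases before the start. *Acan* holds 3, at 44 to 39, 40 to 35 and 7 to 2 bases before the start, of which the first 2 overlap. Of 32851 promoters, 32.7% hold a GC box. Neither window holds a TATA box (TATAAA), which 12.4% of promoters hold. Nor does either hold the TCF/LEF letters CTTTGAA or CTTTGAT or the variants CTTTGTA or CTTTGTT (14.8% of promoters), or the AP-1 letters TGANTCA (6.75%). Each was searched on both strands. These matches describe letters and show no binding.

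Of the 10 genes, 8 passed the filter on low counts, and 3 of these, *Vcan*, *Acan* and *Hapln1*, were called lower in mutant libraries. None was called higher by edgeR, DESeq2 or limma voom, and none rose at an unadjusted p-value under 0.05. The remaining 5 tested genes were not called, and *Ncan* and *Has1* had too few counts to be tested. Over all 19330 genes tested, 9.84% were called lower and 10.4% higher (edgeR), 20.2% in all. Control and mutant libraries did not overlap for 5 of the 8, all lower in mutant (*Vcan*, *Acan*, *Hapln1*, *Hapln3* and *Cd44*), and over all genes tested 22.1% were separated in that direction and 22.6% in the other, 44.7% in all. The median log2 fold change of the 8 was -0.39, beside 0.01 over all genes tested.

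**Figure D1:**
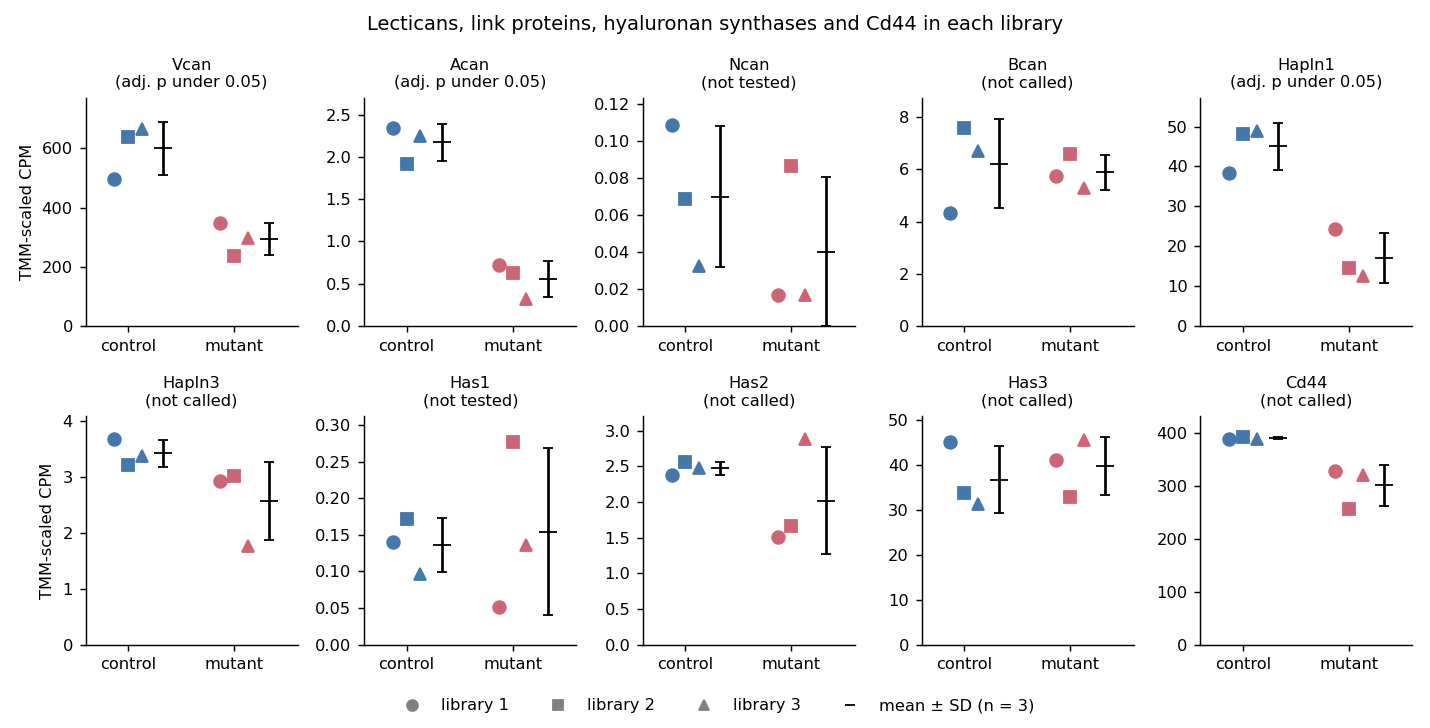
Expression of the 10 genes in each library, in CPM after TMM scaling on axes that start at 0. Symbols stand for libraries 1, 2 and 3 of each group, and the black mark and bar give mean ± SD. The methods mention 3 pairs of samples, but whether the same number means a pair is not stated. *Vcan*, *Acan* and *Hapln1* have all mutant libraries well below all control libraries, *Hapln3* and *Cd44* are separated by a smaller gap, and the other 5 overlap.

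*Vcan* encodes versican, the dominant lectican of this tissue. It measured 496, 638 and 666 CPM in control libraries 1 to 3 and 348, 238 and 297 in mutant libraries 1 to 3. The highest mutant library stood well below the lowest control library. The mean was 600 ± 91.0 CPM in control and 294 ± 55.2 CPM in mutant libraries, with a log2 fold change of -1.03 (SE 0.18, 95% interval -1.43 to -0.62, adjusted p = 0.0085 in edgeR), and *Vcan* decreased by 51%. With 13709 to 41095 counts per library, counting error is small here against the spread between libraries. *Vcan* ranked 99 by mean control CPM among the genes tested. The counts sum all splice forms, so the forms with and without the chondroitin sulfate attachment regions were not separated.

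*Acan* encodes aggrecan, whose dense chondroitin sulfate brush gives cartilage its resistance to compression. Its control libraries measured 2.34, 1.92 and 2.25 CPM and its mutant libraries 0.727, 0.624 and 0.322 CPM. The highest mutant value was far below the lowest control value in a gene with 112 to 151 counts per control library and 19 to 43 per mutant library. The log2 fold change was -1.96 (SE 0.31, 95% interval -2.67 to -1.24, adjusted p = 0.0064 in edgeR), the lowest of the 8 genes tested.

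*Bcan* encodes brevican, a small lectican of brain matrix. Control libraries gave 4.33, 7.60 and 6.72 CPM and mutant libraries 5.73, 6.60 and 5.30 CPM. The mutant values fell inside the control range, and the log2 difference was -0.08 (95% interval -0.57 to 0.41, adjusted p = 0.81 in edgeR), with its sign turned when control library 2 was left out. *Ncan*, encoding the brain lectican neurocan, had 7, 4 and 2 counts in control and 1, 5 and 1 in mutant libraries, near the floor of 3 counts, so that a difference was not detectable at this depth.

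*Vcan* made up nearly all lectican reads in both groups. Its share of the lectican CPM was 98.6 ± 0.0803% in control and 97.8 ± 0.658% in mutant libraries, with every mutant library below every control library (exact permutation test, two-sided p = 0.1, adjusted p = 0.15 over 6 ratios computed). A test of 3 libraries against 3 cannot give a p-value below 0.1. Per kb of exon the share was 95.8 ± 0.370% and 92.8 ± 1.99%.

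*Hapln1* encodes the link protein that fastens versican and aggrecan to hyaluronan. Control libraries measured 38.3, 48.1 and 48.8 CPM and mutant libraries 24.2, 14.5 and 12.5 CPM. No mutant library reached the lowest control library, and mutant library 1 was the highest of its group, as it was for *Vcan* and *Acan*. The log2 fold change was -1.40 (SE 0.24, 95% interval -1.94 to -0.86, adjusted p = 0.0081 in edgeR), and *Hapln1* decreased by 62.1%.

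*Hapln3* encodes a link protein made more widely in vessels and connective tissue. It gave 3.68, 3.21 and 3.37 CPM in control and 2.93, 3.02 and 1.76 in mutant libraries. The groups were separated by a narrow gap, and mutant library 3 stood apart below the others. The log2 difference of -0.41 (SE 0.23, 95% interval -0.94 to 0.11, adjusted p = 0.22 in edgeR) did not pass the test.

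Among the synthases, *Has3* was the most abundant transcript and *Has1* was almost absent. *Has3*, which makes shorter chains in cell culture, gave 45.1, 33.6 and 31.2 CPM in control and 41.0, 32.8 and 45.4 in mutant libraries. The groups overlapped over most of their range, with a log2 difference of 0.12 (95% interval -0.27 to 0.50, adjusted p = 0.64 in edgeR). Some exon sequence of *Has3* is shared with the opposite strand of *Chtf8*, and of *Has2* with that of *Has2os*, and reads there cannot be assigned without strand.

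*Has2*, the main synthase of embryonic mesenchyme, measured 2.38, 2.56 and 2.48 CPM in control and 1.51, 1.66 and 2.88 in mutant libraries. Mutant libraries 1 and 2 were below and mutant library 3 was above every control library. The log2 difference was -0.29 (SE 0.27, 95% interval -0.90 to 0.32, adjusted p = 0.45 in edgeR). Without mutant library 3 it was -0.64 and passed the test (adjusted p = 0.043 in edgeR), and with an offset for GC content it turned to 0.03. *Has1*, another synthase, had 9, 10 and 6 counts in control and 3, 16 and 8 in mutant libraries and was not tested.

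*Has2* contributed 4.99%, 7.03% and 7.33% of the summed synthase CPM in control libraries and 3.54%, 4.79% and 5.95% in mutant libraries. The ranges overlapped (exact permutation test, two-sided p = 0.2, adjusted p = 0.24 over the 6 ratios).

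*Cd44* encodes the hyaluronan receptor CD44. Control libraries gave 390, 393 and 390 CPM and mutant libraries 328, 257 and 321 CPM. The control libraries were almost equal, and every mutant library lay below them. The log2 difference was -0.37 (SE 0.12, 95% interval -0.66 to -0.09, adjusted p = 0.066 in edgeR), so *Cd44* was not called. It is among the 38.3% of genes tested with an unadjusted p-value under 0.05. DESeq2's Wald test gave the same fold change with adjusted p = 0.017, and limma voom with quality weights gave -0.32 with adjusted p = 0.022, whereas the other 15 of 17 alternatives did not call it. Standard and variant splice forms of *Cd44* were counted together.

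**Figure D2:**
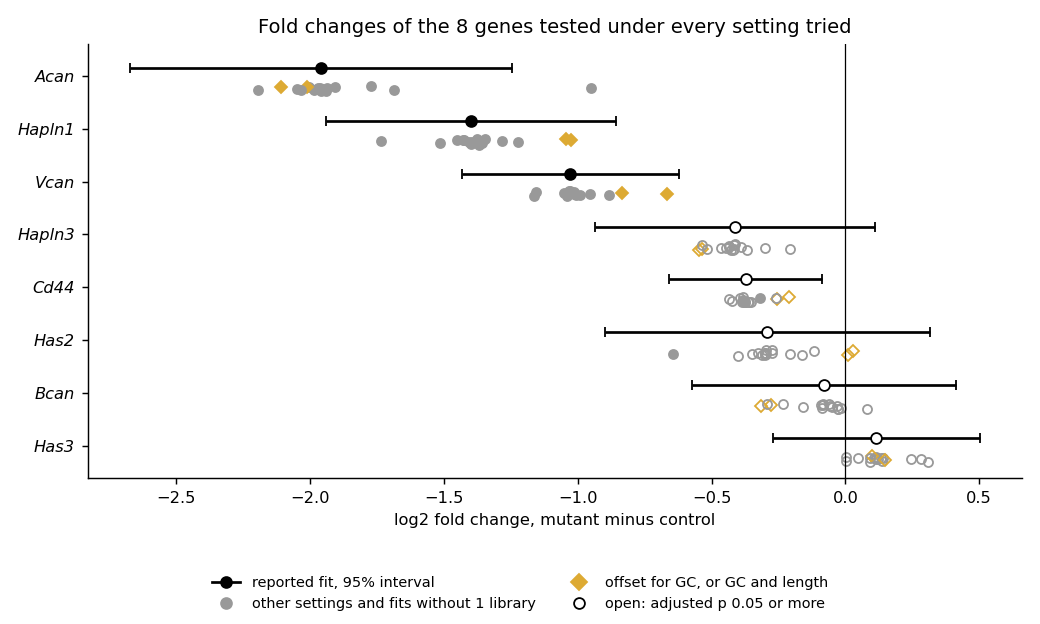
Log2 fold change (mutant minus control) of the 8 genes tested, with 0 marked by the vertical line. Black points and bars give the reported edgeR fit with its 95% interval, grey points the other settings and the fits without 1 library, and yellow diamonds the fits with an offset for GC content or for GC content and length, with filled symbols for an adjusted p-value under 0.05. *Vcan*, *Acan* and *Hapln1* are filled under all 17 alternatives, and the diamonds of *Vcan* and *Hapln1* lie closer to 0 than their reported values.

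*Vcan*, *Acan* and *Hapln1* were called under each of the 17 alternatives. The log2 fold change of *Vcan* ranged from -1.16 to -0.67 (largest adjusted p = 0.046, in edgeR without 1 library), that of *Acan* from -2.20 to -0.95 (0.034) and that of *Hapln1* from -1.74 to -1.02 (0.036). The value nearest 0 came from the offsets for GC content and length for *Vcan* (-0.67, adjusted p = 0.013 in edgeR) and *Hapln1* (-1.02), and from a pseudocount of 1 for *Acan*.

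Ratios within a library do not depend on library scaling, but they were not corrected for the GC content of the transcripts. *Vcan* CPM divided by *Cd44* CPM was 1.27, 1.62 and 1.71 in control and 1.06, 0.925 and 0.926 in mutant libraries. Every mutant ratio was below every control ratio, and the mean log2 ratio differed by -0.65 (exact permutation test, two-sided p = 0.1, adjusted p = 0.15). *Vcan* divided by *Hapln1* was between 13 and 13.6 in control libraries, a narrow range, and 14.4, 16.3 and 23.8 in mutant libraries. The log2 difference was 0.42 (exact permutation test, p = 0.1, adjusted p = 0.15), or 0.21 without mutant library 3, which gave the highest ratio. *Hapln1* divided by *Hapln3* was 10.4, 15 and 14.5 in control and 8.27, 4.82 and 7.09 in mutant libraries, a log2 difference of -0.999 (exact permutation test, p = 0.1, adjusted p = 0.15). *Hapln1* was therefore lower relative to the other link protein gene in every mutant library than in every control library. With the GC offset the log2 fold changes were -0.84 for *Vcan*, -1.05 for *Hapln1* and -0.55 for *Hapln3*. These lay closer together than in the reported fit (-1.03, -1.40 and -0.41).

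**Figure D3:**
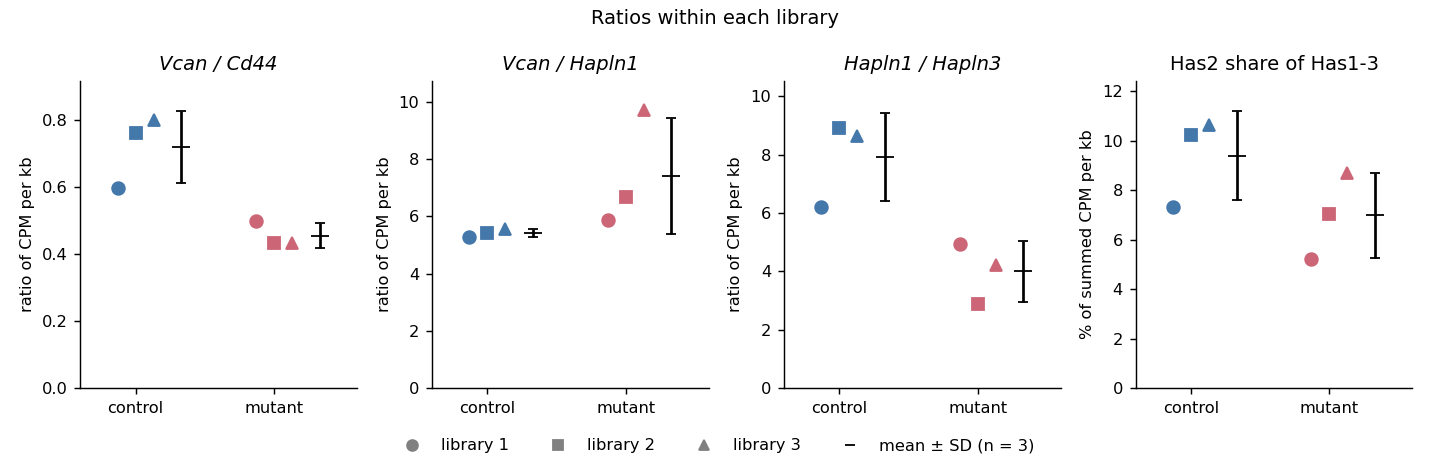
Ratios of expression per kb of exon within each library, and the share of *Has2* among the 3 synthases in percent, on axes that start at 0. Symbols stand for libraries 1, 2 and 3 and the black mark and bar give mean ± SD (n = 3). The ratios of *Vcan* to *Cd44* and of *Hapln1* to *Hapln3* are lower in all mutant libraries, the ratio of *Vcan* to *Hapln1* is higher with mutant library 3 apart from the rest, and the *Has2* share overlaps.

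Levels of different genes were compared per kb of exon. *Cd44* was highest in control libraries (57.7 CPM per kb), followed by *Vcan* (41.5), *Hapln1* (7.63) and *Has3* (5.75). The ranges of *Hapln1* and *Has3* overlapped in control libraries, and no other neighbours in the order did. Below them came *Bcan* (1.53), *Hapln3* (0.973), *Has2* (0.583), *Acan* (0.291), *Has1* (0.0301) and *Ncan* (0.00972). In mutant libraries *Cd44* (44.5 CPM per kb) and *Vcan* (20.3) stayed at the top, and *Has3* (6.23) stood above *Hapln1* (2.89) without overlap. *Has2* (0.476) overlapped *Hapln3* (0.731) there. *Acan* measured 0.0747 CPM per kb in mutant libraries, and *Has1* (0.0342) and *Ncan* (0.00558) each overlapped the gene above.

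The levels of *Hapln1* followed those of *Vcan* most closely over the 6 libraries, with a Pearson correlation of 0.957 in log2 CPM. It was 0.938 for *Cd44*, 0.872 for *Acan*, 0.545 for *Hapln3*, 0.486 for *Has2*, 0.220 for *Bcan* and -0.295 for *Has3*. Among 9616 tested genes with a mean of at least 10 CPM, the 5 most like *Vcan* were *Pcmtd1* (0.999), *Unc5d* (0.999), *Bmi1* (0.999), *Cbfb* (0.998) and *Asxl3* (0.996). All of these values include the difference between the 2 groups and describe these 6 libraries only, and the group difference of *Pcmtd1* changed sign with the GC offsets.

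**Figure D4:**
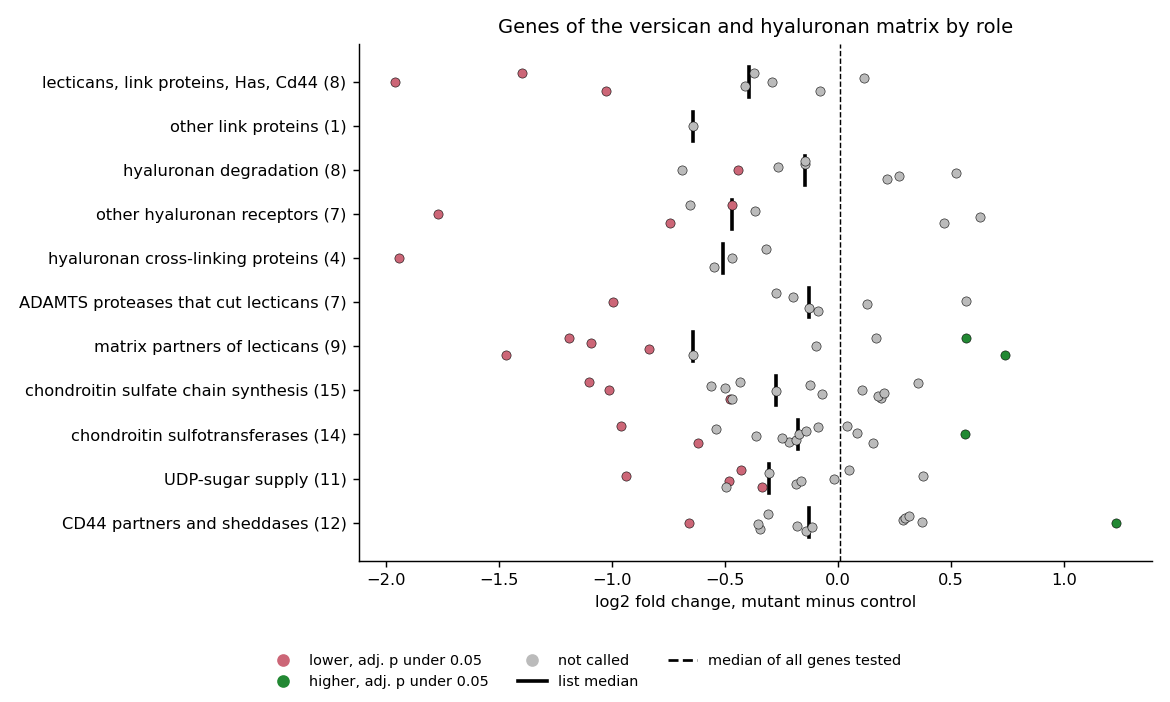
Log2 fold change (mutant minus control) of each tested gene by role, with the number of genes tested in brackets. Red points were called lower, green points higher and grey points were not called (edgeR), thick lines are list medians and the dashed line is the median of all genes tested. All 11 list medians lie left of the dashed line, and the called genes include 2 higher ones among the matrix partners.

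Other genes that build, bind or cut this matrix were grouped into 10 lists of 95 genes, of which 91 were in the table and 88 were tested. Of these, 20 (22.7%) were called lower and 4 (4.55%) higher in edgeR, beside 9.84% and 10.4% of all genes tested, and the median log2 fold change was -0.21. With an offset for GC content 12 (13.6%) were called lower and 3 higher, beside 6.41% of all genes called lower (edgeR). Without control library 2 or control library 3 the counts were 2 and 0, and the share called lower was then about that of all genes, 2.25% beside 2.17% and 2.27% beside 2.08%. *Lyve1* and *Gnpnat1* were called lower under all 17 alternatives.

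Of the partners that bind the lecticans in the matrix, 6 of 9 tested were called, 4 lower and 2 higher. Over all genes tested, 9.84% were called lower and 10.4% higher. *Fbn2*, encoding fibrillin 2 of developing microfibrils, measured 358 ± 85.5 CPM in control and 168 ± 48.6 CPM in mutant libraries (log2 fold change -1.09, adjusted p = 0.019 in edgeR). *Fn1*, encoding fibronectin, measured 512 ± 170 and 225 ± 66.0 CPM (-1.19, adjusted p = 0.027 in edgeR). *Fbln2*, encoding the versican ligand fibulin 2, moved the other way, from 134 ± 15.8 to 223 ± 44.8 CPM (0.74, adjusted p = 0.021 in edgeR). The other called genes were *Fbn1* (262 ± 64.9 and 147 ± 42.2 CPM) and *Tnr* (1.26 ± 0.354 and 0.454 ± 0.212 CPM), both lower, and the elastin gene *Eln* (20.8 ± 2.09 and 30.8 ± 5.84 CPM), which was higher. *Fbn2* was called in 15, *Fn1* and *Fbln2* in 13, *Tnr* in 11, and *Fbn1* and *Eln* in 10 of the 17 alternatives, and all 6 lost the call without control library 2 or control library 3.

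Among 7 other hyaluronan receptors, 3 were called lower and none higher in edgeR (none higher at an unadjusted p-value under 0.05 or in DESeq2, and 1 in voom). Over all genes tested, 9.84% were called lower and 10.4% higher. *Lyve1*, expressed by lymphatic endothelium and some macrophages, measured 5.76 ± 0.328 CPM in control and 1.69 ± 0.417 CPM in mutant libraries, a log2 fold change of -1.77 (SE 0.21, adjusted p = 0.0017 in edgeR). *Hmmr*, whose product binds hyaluronan and the mitotic spindle, measured 5.52 ± 0.752 and 3.30 ± 0.709 CPM (-0.74, adjusted p = 0.035 in edgeR), and the scavenger receptor gene *Stab1* 60.1 ± 10.02 and 43.4 ± 2.87 CPM (-0.47, adjusted p = 0.042 in edgeR). *Hmmr* kept its call in 9 and *Stab1* in 10 of 17 alternatives, and both lost it without control library 2 or control library 3.

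The supply of sugar precursors had 4 of 11 genes called lower and none higher in edgeR, and none higher in DESeq2, in voom or at an unadjusted p-value under 0.05. Over all genes tested, 9.84% were called lower and 10.4% higher. *Gnpnat1*, an acetyltransferase on the way to UDP-N-acetylglucosamine, one of the building blocks of hyaluronan, measured 22.0 ± 0.359 and 11.5 ± 0.757 CPM in control and mutant libraries. The log2 fold change of *Gnpnat1* was -0.94 (SE 0.10, adjusted p = 0.0011 in edgeR), with a range of -0.98 to -0.71 over the alternatives. Reads from the stretches it shares with *Styx* may be included. *Ugp2*, which makes UDP-glucose, measured 43.1 ± 1.57 and 30.9 ± 1.92 CPM (-0.48, adjusted p = 0.012 in edgeR), and *Pgm3*, the step after *Gnpnat1*, 22.8 ± 1.82 and 17.0 ± 1.10 CPM (-0.43, adjusted p = 0.029 in edgeR). The fourth was *Ugdh*, which makes UDP-glucuronic acid (57.9 ± 2.29 and 45.9 ± 3.44 CPM). *Ugp2* kept its call in 12, *Pgm3* in 10 and *Ugdh* in 8 of 17 alternatives. All 3 lost it with the offsets for GC content and without control library 2 or control library 3, and *Pgm3* and *Ugdh* also without control library 1. The log2 fold change of *Ugp2* nearest to 0 was -0.11 and that of *Ugdh* -0.09.

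Chondroitin sulfate chains are built on the lectican core proteins by 15 listed genes, of which 3 were called lower and none higher in edgeR (1 higher at an unadjusted p-value under 0.05, none in DESeq2 and 1 in voom). Over all genes tested, 9.84% were called lower and 20.2% in either direction. *Dsel*, encoding a dermatan sulfate epimerase, measured 90.6 ± 17.0 and 42.2 ± 11.9 CPM (log2 fold change -1.10, adjusted p = 0.015 in edgeR). *Csgalnact2*, which starts the chain, and *Chsy3*, which extends it, gave -0.48 and -1.01 (adjusted p = 0.042 and 0.045 in edgeR). Of 14 genes for sulfation, 2 (14.3%) were called lower and 1 (7.14%) higher, beside 9.84% and 10.4% of all genes tested. *Impad1*, encoding a Golgi phosphatase that clears a by-product of sulfation, measured 211 ± 40.1 and 109 ± 19.7 CPM (-0.96, adjusted p = 0.012 in edgeR), the uronyl sulfotransferase gene *Ust* 38.5 ± 0.645 and 25.1 ± 3.74 CPM (-0.62, adjusted p = 0.013 in edgeR), and the transporter gene *Slc35b3* 24.6 ± 2.28 and 36.2 ± 8.30 CPM (0.56, adjusted p = 0.048 in edgeR). *Dsel* and *Ust* were called in 15 of 17 alternatives each, *Impad1* in 14, *Chsy3* in 9, and *Csgalnact2* and *Slc35b3* in 7 each. All 6 lost the call without control library 2 or control library 3, and *Impad1*, *Chsy3* and *Csgalnact2* with the GC offset. The log2 fold change of *Csgalnact2* was -0.04 with offsets for GC content and length.

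The enzymes that take the matrix apart cut either the core proteins or hyaluronan, and 1 gene of each kind was called, beside 9.84% of all genes tested that were called lower. Of 7 ADAMTS proteases that cut lecticans, *Adamts15* was called lower (2.83 ± 0.269 and 1.42 ± 0.593 CPM, log2 fold change -0.99, adjusted p = 0.048 in edgeR), while *Adamts8* (0.56, adjusted p = 0.28) and *Adamts20* (-0.27, adjusted p = 0.45) were not. Of 8 genes for hyaluronan breakdown, the lysosomal *Hexa* was called lower (55.1 ± 2.07 and 40.5 ± 3.97 CPM, -0.44, adjusted p = 0.020 in edgeR), while the hyaluronidase gene *Hyal2* (0.27, adjusted p = 0.059) and *Cemip* (-0.69, adjusted p = 0.16) were not. Of 4 tested proteins that cross-link hyaluronan, the heavy chain gene *Itih2* was called lower at a low level (0.599 ± 0.228 and 0.154 ± 0.0806 CPM, -1.94, adjusted p = 0.027 in edgeR). *Itih5* (-0.47, adjusted p = 0.085) and *Tnfaip6*, whose product transfers heavy chains to hyaluronan (-0.55, adjusted p = 0.14), were not called, and neither was the link protein gene *Hapln4* (0.249 ± 0.0352 and 0.159 ± 0.0923 CPM, adjusted p = 0.36 in edgeR). *Adamts15* kept its call in 9 and *Hexa* in 13 of 17 alternatives, and *Itih2* in 12 of 16, and all 3 lost it without control library 2 or control library 3. *Hyal2* was called higher in 4 of 17, by DESeq2, by voom, with the filter of 1 CPM and without mutant library 2. *Cemip* was called lower without control library 1 (-1.02, adjusted p = 0.025 in edgeR), and its log2 fold change was -0.33 without control library 2.

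Of 12 genes for partners and sheddases of CD44, 1 (8.33%) was called lower and 1 (8.33%) higher, beside 9.84% and 10.4% of all genes tested. *Adam10*, encoding a protease that sheds CD44, measured 310 ± 12.6 and 196 ± 43.9 CPM (log2 fold change -0.66, adjusted p = 0.030 in edgeR). *Spp1*, encoding the CD44 ligand osteopontin, which is also a product of mineralizing cells, rose from 14.9 ± 4.27 to 34.9 ± 17.6 CPM (1.23, adjusted p = 0.039 in edgeR). *Esrp1*, an epithelial splicing factor that acts on *Cd44*, gave 61.4 ± 4.90 and 75.4 ± 2.29 CPM and was not called (0.29, adjusted p = 0.056 in edgeR). *Adam10* kept its call in 11 and *Spp1* in 12 of 17 alternatives, and both lost it without any 1 of the control libraries or without mutant library 1. *Esrp1* was called higher in 6 of 17, among them DESeq2, voom and both fits with GC offsets.

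The base composition and length of transcripts moved with the direction of change over all genes. In the tertile of tested genes with the lowest GC content, which holds *Vcan*, *Hapln1*, *Has2* and *Cd44*, 18.6% were called lower and 4.50% higher in edgeR. In the tertile with the highest GC content, which holds *Acan*, *Bcan* and *Hapln3*, 3.48% were lower and 16.7% higher. *Vcan* has 14462 bases of exon at 44.5% GC, and *Hapln1* 5902 bases at 40.3%. Of the 2688 tested genes that are both in the lowest tertile for GC and the highest for length, where *Vcan*, *Hapln1* and *Cd44* lie, 23.6% were called lower and 1.75% higher, with a median log2 fold change of -0.30. *Acan*, at 54.5% GC, lies in the GC tertile where higher calls outnumber lower ones. By its 7469 bases of exon it lies in the longest tertile, where 13.7% were called lower and 5.03% higher. With the GC offset the log2 fold changes were -0.84 for *Vcan*, -1.05 for *Hapln1*, -2.11 for *Acan* and -0.26 for *Cd44*.

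**Figure D5:**
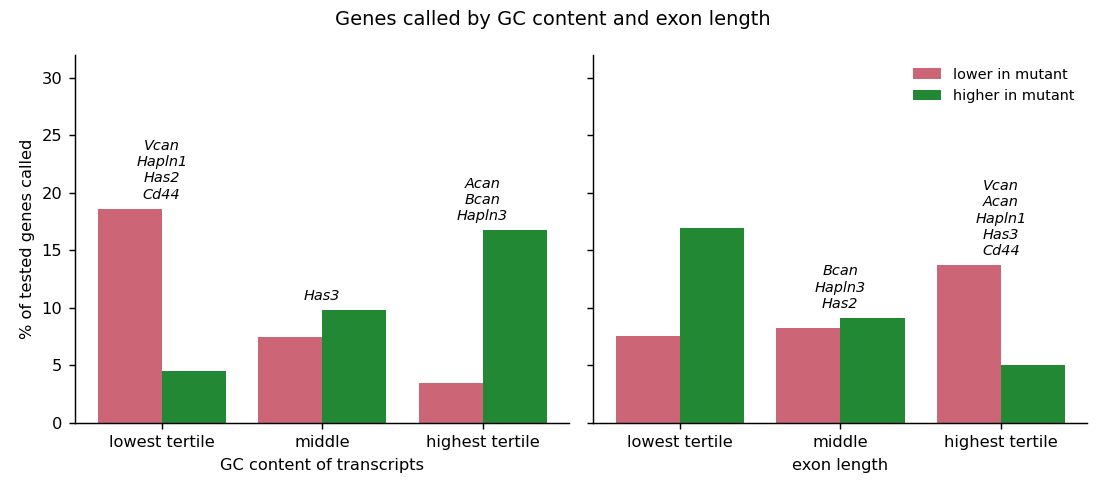
Percent of tested genes called lower (red) or higher (green) in mutant libraries (edgeR), by tertiles of transcript GC content and of exon length, with the 8 tested genes named above the tertile they fall in. Lower calls are most frequent among GC-poor and among long transcripts, at 18.6% and 13.7%.

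Markers of other cell types were measured beside these genes, and their part in the results was not tested. Cartilage, where *Acan* and *Hapln1* are abundant, had 2 of 9 tested markers called lower, *Col2a1* (12.3 ± 2.38 and 7.24 ± 1.14 CPM) and *Col9a1* (3.47 ± 1.31 and 0.899 ± 0.144 CPM, edgeR). Of the 9, 7 had a fitted log2 fold change below 0, with a median of -0.67, and 4 did not overlap between the groups, all lower in mutant libraries. Over all genes tested, 9.84% were called lower, and 22.1% were separated in that direction and 44.7% in either. *Col9a2* (173 ± 17.9 and 88.2 ± 39.2 CPM, -0.97, adjusted p = 0.054 in edgeR) and *Cnmd* (4.29 ± 1.45 and 1.84 ± 0.880 CPM, -1.22, adjusted p = 0.058 in edgeR) were not called by edgeR. DESeq2 and voom each called 4 cartilage markers lower, and voom called 1 higher. *Col9a1* was called under all 17 alternatives and *Col2a1* under 13, and without control library 2 or control library 3 *Col9a1* alone was called. The summed cartilage markers, most of which is *Col11a2*, were 758 to 1575 CPM in control and 637 to 1091 CPM in mutant libraries. The listed marker *Matn1* was at or near 0 in all libraries. Skeletal muscle markers were called lower in 7 of 8 cases, with 3 called without control library 2 and 2 by voom, and their sum was 11.6 to 41.3 CPM in control and 3.20 to 4.14 CPM in mutant libraries. Red blood cell markers had 2 of 7 called lower, with sums of 784 to 1331 and 245 to 942 CPM, and 5 were called lower by voom or without mutant library 2 and 0 without mutant library 1.

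Of the cell types of the tooth itself, no odontoblast marker and no dental epithelium marker of 10 each was called in edgeR. At an unadjusted p-value under 0.05, 5 epithelial markers were higher in mutant libraries, and DESeq2 called 3 and voom 5 of the list higher and voom called 1 lower. No odontoblast marker passed the unadjusted threshold or DESeq2, and voom called 1 higher. The summed epithelial markers were 171870 to 192136 CPM in control and 185325 to 255690 CPM in mutant libraries, and the odontoblast markers 14758 to 46650 and 13087 to 35870 CPM. Dental mesenchyme markers overlapped in sum (418 to 526 and 453 to 505 CPM), with *Prrx1* called lower (46.7 ± 8.01 and 29.0 ± 3.48 CPM) and *Msx2* higher (168 ± 8.59 and 219 ± 17.5 CPM). *Msx2* was also the largest part of that sum. Of the 10 mesenchyme markers, 8 had a fitted log2 fold change below 0, with a median of -0.30, and DESeq2 and voom each called 4 of them lower and 1 higher. Without control library 1 edgeR called 5 lower, and without control library 2 or control library 3 it called 0. *Prrx1* kept its call in 14 and *Msx2* in 7 of 17 alternatives. The part of these markers in the *Vcan* difference was not tested. Among the remaining lists, edgeR called 1 of 6 bone markers lower and 1 of 8 endothelial markers higher. It called 2 of 10 leukocyte markers higher and 1 lower, 2 of 9 glial markers higher and 0 of 8 mural cell markers. Over all genes tested, 20.2% were called. At an unadjusted p-value under 0.05, in DESeq2 and in voom, 1 mural cell marker was lower.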

How the data were processed

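The authors deposited estimated counts per gene, of which 47.8% are whole numbers, so some reads seem to have been split between genes. The methods describe single-end 75-cycle reads aligned to mm10 with TopHat, whereas the submitters' processing notes name STAR 2.6.1d and Partek, and which made the table is not given in the sources used here. The authors also deposited a normalized signal table of 22061 genes, equal to (count + 1) times one factor per library within 0.000822% and not divided by length, which was used for limma-trend only. The count table has 6 columns that match no sample of the series, and these were left out.

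Groups came from the genotype labels, and a batch that coincided with genotype cannot be told apart from it. The number codes in the labels of the control libraries begin differently from those of the mutant libraries, and both groups use the same index numbers. What these codes mean is not stated. Control library 1 is also coded WW and control libraries 2 and 3 OW, beside OR for the mutant libraries, without explanation. Estimated counts were rounded (the planned test assumed whole counts), scaled by TMM and filtered with filterByExpr, and edgeR's quasi-likelihood test was run on 19330 genes (R 4.3.3, edgeR 4.0.16, limma 3.58.1, DESeq2 1.42.0, statmod 1.5.0), with Benjamini-Hochberg adjustment over all of them. The methods mention 3 pairs of samples without saying which libraries form them, and the reported fit was unpaired. The biological coefficient of variation was 18.7%. The scripts were tested on simulated data. Exact permutation tests used log2 ratios, and correlations were taken on log2 CPM, to which 2 counts were added as the prior. No library was a copy of another (chi-square per gene at least 56.2 between libraries of a group). The floor of 3 counts, 0.0466 to 0.0520 CPM, covers counting error only. Coordinates and exon lengths came from GENCODE M21, which matched all 27506 genes by symbol, chromosome and start.

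The genes, lists and ratios were chosen with earlier results of these data known. Named genes are the 10 genes, *Ror2*, the 3 with the smallest p-value per list and the 5 most like *Vcan*. *Fbn1*, *Tnr*, *Eln*, *Ugdh* and the cell type markers were named after their values were seen, and the tertiles of GC content and length were added then. The alternatives were DESeq2, voom with quality weights, 2 other scalings, 2 other filters, limma-trend with pseudocounts of 1 and 0.1, a replicate block, offsets for GC content and length, and leaving out each library.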

Additional observations from a re-analysis of the deposited data

How the results depend on the processing

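With 3 libraries per group, 1 library decided many calls on single genes. Over all genes, 1903 were called lower and 2003 higher. These counts were 3174 and 3167 with voom, and 1239 and 1514 with the GC offset. Leaving out each library gave 414 to 2481 lower and 458 to 2520 higher, lowest without control library 3. Of the 88 listed genes tested, 20 were called lower and 4 higher. These counts became 26 and 7 with DESeq2, 27 and 11 with voom, and 16 and 2 with a pseudocount of 1 (90 tested). They were 12 and 3 with the GC offset, and 12 and 4 with offsets for GC content and length. Leaving out each library gave 2 to 15 lower and 0 to 5 higher. The genes of the hyaluronan matrix called lower numbered 3 to 4 without 1 library, and none was called higher. *Ror2* ranged from -0.46 to -0.41 on the log2 scale without 1 library and lost its call without control library 2 (adjusted p = 0.066 in edgeR) or 3 (adjusted p = 0.075).

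The direction turned for *Has2* with the GC offset (0.029) and with GC and length offsets (0.0099), for *Pcmtd1* under the same offsets (0.0785 and 0.1364) and for *Bcan* when a library was left out (-0.2935 to 0.0807, the highest without control library 2). The cause was not tested. No scaling moved the median of all genes by over 0.1. No member shares 75-base stretches with another gene on the same strand, so no summed count was made. Libraries with shared index numbers did not vary together (correlations of -0.10, -0.08 and -0.0038). Whether these numbers are the pairs that the methods mention is not stated. With the numbers as a replicate block, 1001 genes were lower and 1012 higher, and 8 of the listed genes were lower and 3 higher. In that fit *Ror2* was at -0.43 (adjusted p = 0.058 in edgeR), and *Vcan* (-1.03, adjusted p = 0.024 in edgeR), *Acan* (-2.0045) and *Hapln1* (-1.45) kept their calls.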
